A study of Mus musculus with 2 samples.

Results

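The genes described here encode proteins of the extracellular matrix, and 10 were chosen by name from the 19059 genes of the deposited matrices. Col1a1, Col1a2 and Col3a1 encode chains of the fibrillar collagens I and III, Dcn and Lum encode the small proteoglycans decorin and lumican, Postn and Sparc encode the matricellular proteins periostin and osteonectin, and Col4a1, Col4a2 and Lamb1 encode chains of type IV collagen and laminin. All 10 had a row in each of the 8 matrices. The data are single-cell RNA counts from orthotopic tumors grown in C57BL/6J mice from mouse glioblastoma stem cells (mGSC) that carried Trp53+/- and Nf1+/-, alleles that the tumors of both groups shared. Mice received vehicle or Xevinapant, a SMAC mimetic that inhibits IAP proteins, once a day, and 4 tumors per group were taken after treatment. C57BL/6J mice have an intact immune system. The cells of each group were fixed, pooled and read with gene probes, so levels of different genes depend also on their probes.

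Collagens I and III assemble into the fibrils of connective tissue, where decorin and lumican bind their surface and periostin and osteonectin take part in their assembly and in signalling to cells. Type IV collagen and laminin form the networks of the basement membrane, the sheet on which endothelium and mural cells rest. In normal brain, fibrillar collagen is found mainly in the meninges and around larger vessels, while the basement membrane surrounds every vessel.

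The 8 matrices, 4 per group, held 56943 barcodes with 71835789 to 300206053 unique molecular identifiers (UMIs) per matrix, and 54574 cells passed the filters. The 2369 barcodes removed had a median of 107120 to 121030 UMIs in the vehicle matrices and in Xevinapant 3 and 4, and of 1210 and 1876.5 UMIs in Xevinapant 1 and 2. Their matrix genes were not analysed here, and shares of UMIs are of the kept cells. Some matrices of a group were far more alike than others. The noise ratio, the median over genes of the squared difference of tumor-cell counts over that from sampling alone, was 2.27 to 9.76 for vehicle 1 with 3, for Xevinapant 1 with 2 and for Xevinapant 3 with 4. It was 35.1 to 102 in the remaining 9 pairs inside a group. The 3 pairs with the low ratio were summed. This gave 3 samples with vehicle (called vehicle 1 and 3, then vehicle 2, then vehicle 4). It gave 2 with the drug (called Xevinapant 1 and 2, then Xevinapant 3 and 4). The joining rests on this likeness, and whether the matrices of a pair have a common origin was not tested. Droplet barcodes shared by 2 matrices numbered 321 to 1059 in the joined pairs and 481 to 1603 in the other pairs within a group. Across groups they numbered 36 to 528. Shared barcodes thus did not set the joined pairs apart from others of their group. The label of the vehicle group names total RNA and that of the Xevinapant group polyA RNA, and each group has its own pool and batch date, so treatment, pool and batch cannot be told apart. Nothing in the labels says which matrix came from which mouse, and p-values measure the spread between these samples, which may be partly technical.

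Cells were classed by UMIs of marker genes, none of them among the 10 matrix genes. A class needed at least 3 distinct markers and a minimum summed level, and cells that passed for more than 1 class, or that passed for a stromal or immune class while carrying the tumor panel, were set aside as mixed. This gave 42665 tumor cells, 3269 myeloid cells, 325 fibroblasts, 226 endothelial cells, 165 lymphoid cells and 96 mural cells (pericytes and smooth muscle), with 1553 mixed cells, 134 erythrocytes and 6141 cells of no class. The fibroblasts held UMIs of 17 of the 18 fibroblast markers, with Tcf21 at 0, and carried the tumor panel at 3.23 to 9.04% of its level in tumor cells. They numbered 30, 10 and 57 in vehicle 1 and 3, vehicle 2 and vehicle 4, and 154 and 74 in the drug-treated samples Xevinapant 1 and 2 and Xevinapant 3 and 4, an order kept throughout. Mural cells numbered 14, 8, 16, 36 and 22, and vehicle 2 was left out of mural levels because it held under 10 cells. Levels are given as CPM, the UMIs of a gene per 1000000 UMIs of all genes, summed over the cells of a class in a sample.

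Fibroblasts carried the highest levels of the fibrillar collagens of the 6 classes. Col1a1, the alpha 1 chain of type I collagen and the gene whose position is 11:94936224-94953042 on the plus strand of GRCm38, stood at 81829.7, 122750, 68287, 80212 and 77749.8 CPM in fibroblasts. The highest value came from vehicle 2 with its 10 cells, and the other samples lay close together with the groups overlapping. In mural cells it stood at 36146, 6688, 14867 and 4815 CPM in vehicle 1 and 3, vehicle 4, Xevinapant 1 and 2 and Xevinapant 3 and 4. The fibroblast median was 7.44 times the mural median and the ranges did not overlap, while the mural median was 108 times the myeloid one. Below mural cells the classes overlapped: the range was 53.3 to 391 CPM in myeloid cells, 22.5 to 256 in tumor cells, 6.16 to 230 in endothelial cells and 0 to 117 in lymphoid cells, which are not expected to make collagen.

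Col1a2, the alpha 2 chain that joins the alpha 1 chain in type I collagen (6:4504814-4541544, plus strand), followed the same order. Its fibroblast levels were 54863, 84064, 49285, 46665 and 55132 CPM, 9.94 times the mural level by medians. Col3a1, the single chain of type III collagen (1:45311538-45349706, plus strand), stood at 50484, 60254, 40265, 45836 and 42370 CPM in fibroblasts, 11 times the mural median. For each of these genes the fibroblast and mural ranges were separate. Together the 3 collagen genes made up 18.7%, 26.7%, 15.8%, 17.3% and 17.5% of all UMIs of fibroblasts, and 1.06 to 6.01% of those of mural cells, while fibroblasts held 0.0781 to 1.30% of the UMIs of the kept cells of a sample.

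**Figure D1:**
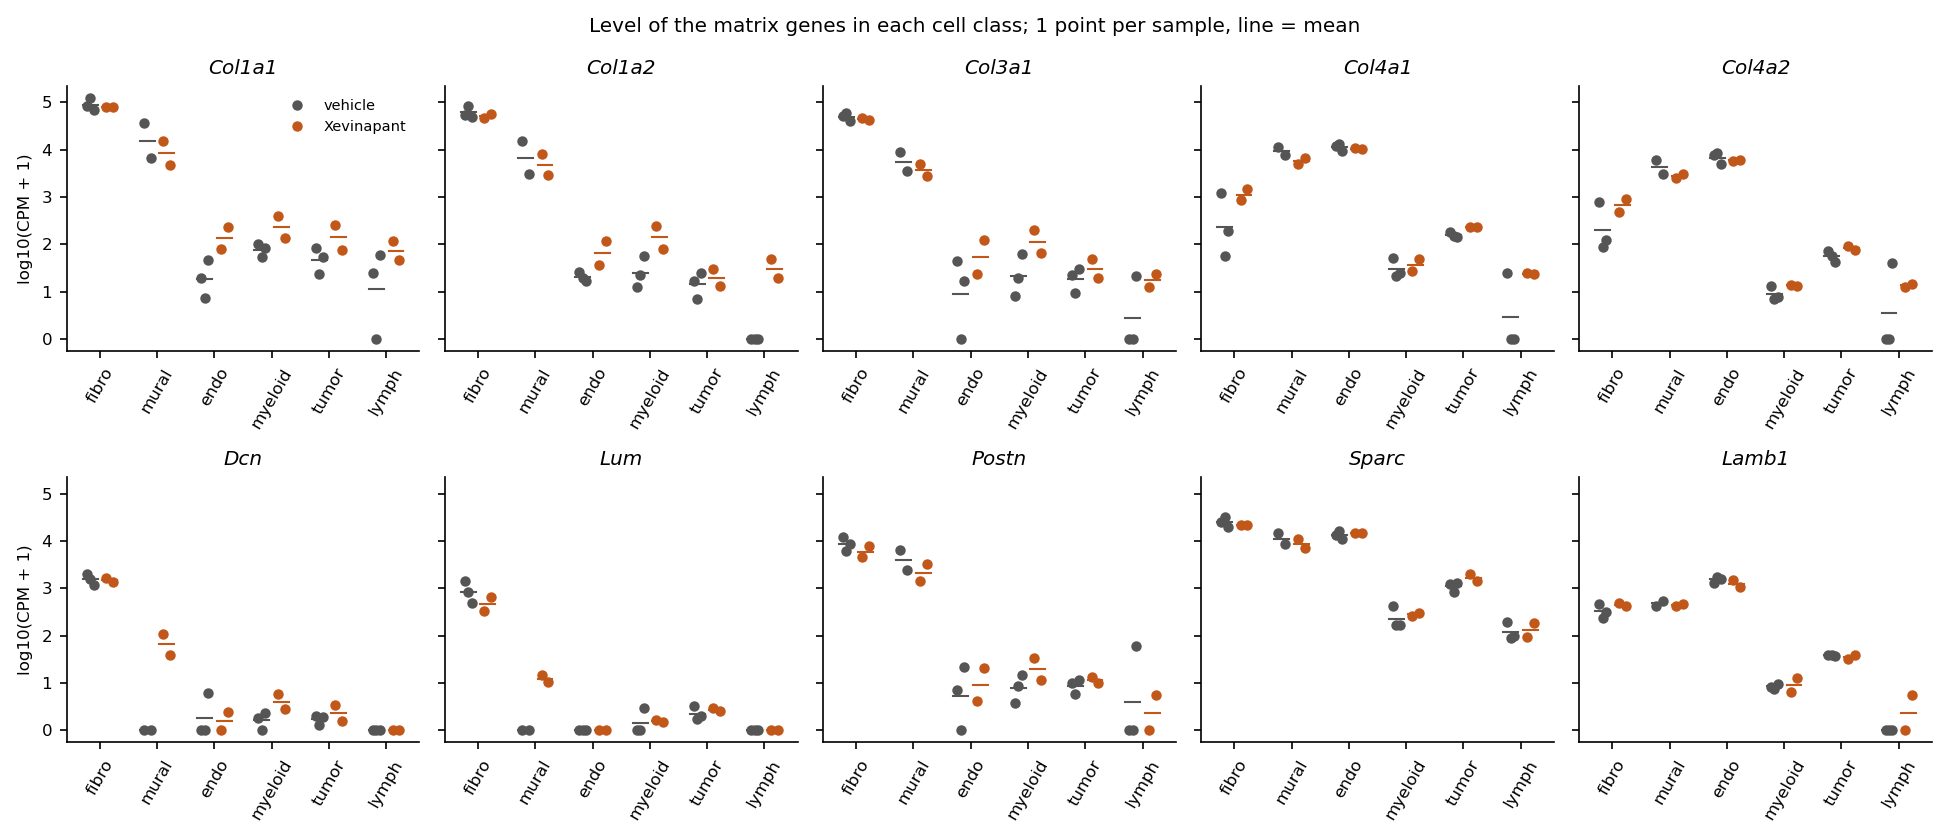
Level of the 10 matrix genes by cell class, as log10(CPM + 1) on the y axis, with 1 point per joined sample, colored by treatment, and a line at the mean of the plotted values; mural cells of vehicle 2 are left out. Fibroblasts lead for Col1a1, Col1a2, Col3a1, Dcn, Lum, Postn and Sparc, and endothelial cells for Col4a1, Col4a2 and Lamb1.

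The proteoglycan genes had their highest level in fibroblasts, with a larger ratio of fibroblasts to mural cells than the collagens. Dcn, decorin (10:97479609-97518143, plus strand), stood at 2053, 1575, 1171, 1673 and 1372 CPM in fibroblasts and at 0, 0, 110 and 37.7 CPM in the 4 mural samples, a ratio of medians of 83.6. No lymphoid cell held a Dcn UMI (0 of 165 cells, which allows a share of cells with a UMI of up to 1.82%), and tumor cells held 0.285 to 2.43 CPM. Lum, lumican (10:97565128-97572703, plus strand), stood at 1462, 853, 499.9, 325 and 669 CPM in fibroblasts and at 0 to 13.8 CPM in mural cells. The fibroblast samples spread widely, with the lowest value in Xevinapant 1 and 2. No endothelial cell held a UMI of it (0 of 226 cells, which allows a share with a UMI of up to 1.33%). These limits cover counting error only and say nothing of cells that express the gene below 1 UMI, with median totals of 1887 UMIs in lymphoid and 3135 in endothelial cells. Dcn and Lum lie near each other on chromosome 10 and have the same strand.

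Both genes were found in only part of the fibroblasts. To set the depth equal, each cell was thinned to 2000 UMIs, which left 263 fibroblasts and left out 62. Of these, 98.9% held a Col3a1 UMI, 98.5% Col1a2, 97.0% Col1a1 and 89.4% Postn, against 69.6% for Dcn and 39.2% for Lum. Without thinning, 79.7% held Dcn and 54.8% Lum. After thinning, 34.2% of the fibroblasts held both proteoglycan genes, 35.4% Dcn alone, 4.94% Lum alone and 25.5% neither. These shares pool all samples, which gave 22, 7, 43, 126 and 65 of the cells. By sample 54.5%, 71.4%, 34.9%, 29.4% and 32.3% held both genes, and 4.55%, 0%, 27.9%, 26.2% and 32.3% neither. A cell without a UMI at this depth may still express the gene at a low level. The collagen level also varied widely among the cells: per 10000 UMIs of a fibroblast, Col1a1 took 84.1 at the 10th percentile, 556 at the median and 1469 at the 90th percentile.

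Postn, periostin (3:54361109-54391037, plus strand), was shared by fibroblasts and mural cells. Its levels were 12018, 6037, 8562, 4507 and 7942 CPM in fibroblasts and 6605, 2496, 1450 and 3223 CPM in the 4 mural samples. The fibroblast level was higher in 4 of 4 samples, by a ratio of medians of 2.78, but the ranges overlapped. Mural cells in turn stood 265 times above myeloid cells, and 73.9% of thinned mural cells held a Postn UMI. Dcn was found in 7.25% of the same mural cells.

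Sparc, osteonectin (11:55394500-55423183, minus strand), was the most widely spread of the 10 genes. It stood at 24950, 32014, 20073, 21588 and 21434 CPM in fibroblasts, at 13774, 16112, 11205, 14911 and 14755 CPM in endothelial cells and at 14464, 8481, 11241 and 7020 CPM in mural cells. Fibroblasts and endothelial cells did not overlap, with medians 1.46 times apart, while endothelial and mural cells did. Tumor cells carried 1233, 855, 1273, 2017 and 1406 CPM, and 76.2% of thinned tumor cells held a UMI, against 22.7% of lymphoid cells. Within the myeloid class, microglia stood at 161 to 1058 CPM with a median of 314, and macrophages and monocytes at 117 to 256 CPM, so these ranges overlapped. Lymphoid cells stood at 87.7 to 192 CPM, which overlapped both ranges. The part of RNA from other cells in these values was not tested.

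The basement membrane genes had another order, with endothelial cells first. Col4a1, the alpha 1 chain of type IV collagen (8:11198423-11312826, minus strand), stood at 12168, 13206, 9534, 10632 and 10345 CPM in endothelial cells and at 11181, 7541, 5072 and 6530 CPM in mural cells. The endothelial value was higher in 4 of 4 samples, by 1.51 times between medians, while the ranges over samples overlapped. The mural level was 8.35 times that of fibroblasts, which ran from 54.7 to 1475 CPM. Tumor cells stood at 178, 145, 139, 227 and 229.6 CPM, 6.90 times the myeloid level and without overlap with it.

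Col4a2, the alpha 2 chain that joins the alpha 1 chain in type IV collagen (8:11312805-11449287, plus strand), stood at 7498, 8330, 4998, 5836 and 5966 CPM in endothelial cells. It was 1.94 times the mural level by medians, and the mural level was 6.31 times that of fibroblasts. Lamb1, the laminin beta 1 chain (12:31265234-31329644, plus strand), stood at 1307, 1748, 1615, 1484 and 1069 CPM in endothelial cells. It was 3.29 times the mural level with no overlap, and mural cells and fibroblasts were alike within their ranges, at 427 to 554 and 241 to 489.5 CPM. Among thinned endothelial cells 98.7% held Col4a1, 93.7% Col4a2, 83.7% Lamb1 and 99.4% Sparc, while 8.81% held Col1a1, against 5.33% of lymphoid cells.

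Col4a1 and Col4a2 are transcribed away from each other, with annotated 5′ ends that overlap, and their levels moved together over the 24 points of class and sample with a Pearson correlation of 0.99. The points share libraries and depth, and the value is a description. Their RefSeq promoter windows (GRCm38.p6, 250 bases before to 50 bases after the start) are shown because the pair shares this stretch: the starts lie 21 bases apart and the windows overlap by 78 bases. Capitals mark CCAAT and GGGCGG, searched on both strands, and each sequence is written 5′ to 3′ on its own gene's strand, Col4a1 at chr8:11312777-11313076 (minus) and Col4a2 at chr8:11312555-11312854 (plus).
Col4a1: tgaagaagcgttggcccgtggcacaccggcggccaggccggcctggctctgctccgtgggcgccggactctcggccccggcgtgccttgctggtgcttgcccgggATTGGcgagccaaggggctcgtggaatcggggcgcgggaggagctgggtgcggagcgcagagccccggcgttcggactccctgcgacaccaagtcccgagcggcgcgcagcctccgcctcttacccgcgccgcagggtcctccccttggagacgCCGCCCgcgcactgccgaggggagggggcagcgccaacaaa
Col4a2: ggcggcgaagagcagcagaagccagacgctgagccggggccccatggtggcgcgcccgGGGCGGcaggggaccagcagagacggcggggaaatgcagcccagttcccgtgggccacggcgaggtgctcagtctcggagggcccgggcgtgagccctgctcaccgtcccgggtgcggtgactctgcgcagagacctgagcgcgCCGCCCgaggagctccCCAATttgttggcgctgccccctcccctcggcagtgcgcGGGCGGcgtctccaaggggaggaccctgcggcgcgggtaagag
CCAAT was found 1 time in each window, and GGGCGG 1 time in that of Col4a1 and 3 times in that of Col4a2, with the matches in the shared stretch counted in both. TATAA was found in neither. Over all 32851 windows of the table, 37.4% held CCAAT, 35.7% GGGCGG and 24.9% TATAA. A match is a description of the letters and not a bound site. The GC content of the windows was 74% and 73.7%.

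The ratio of the type I collagen chains lay in a narrow range in fibroblasts. Col1a1 UMIs were 1.39 to 1.72 times Col1a2 UMIs in fibroblasts over 5 samples and 1.65 to 2.42 times in mural cells, vehicle 2 included. In tumor cells the same ratio was 5.14, 3.73, 2.20, 9.05 and 6.30, above the fibroblast range in every sample. In myeloid cells it was 8.71, 2.46, 1.46, 1.60 and 1.67, with the first value standing apart. The ratio of Col4a1 to Col4a2 was 1.59 to 1.91 in endothelial cells, 1.83 to 2.47 in mural cells, 0.625 to 1.73 in fibroblasts and 2.44 to 3.33 in tumor cells. The lowest fibroblast value came from vehicle 2 with its 10 cells, and the fibroblast median was 1.59. The probes are the same in every class, so a ratio may be compared between classes although its size has no meaning in molecules.

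**Figure D2:**
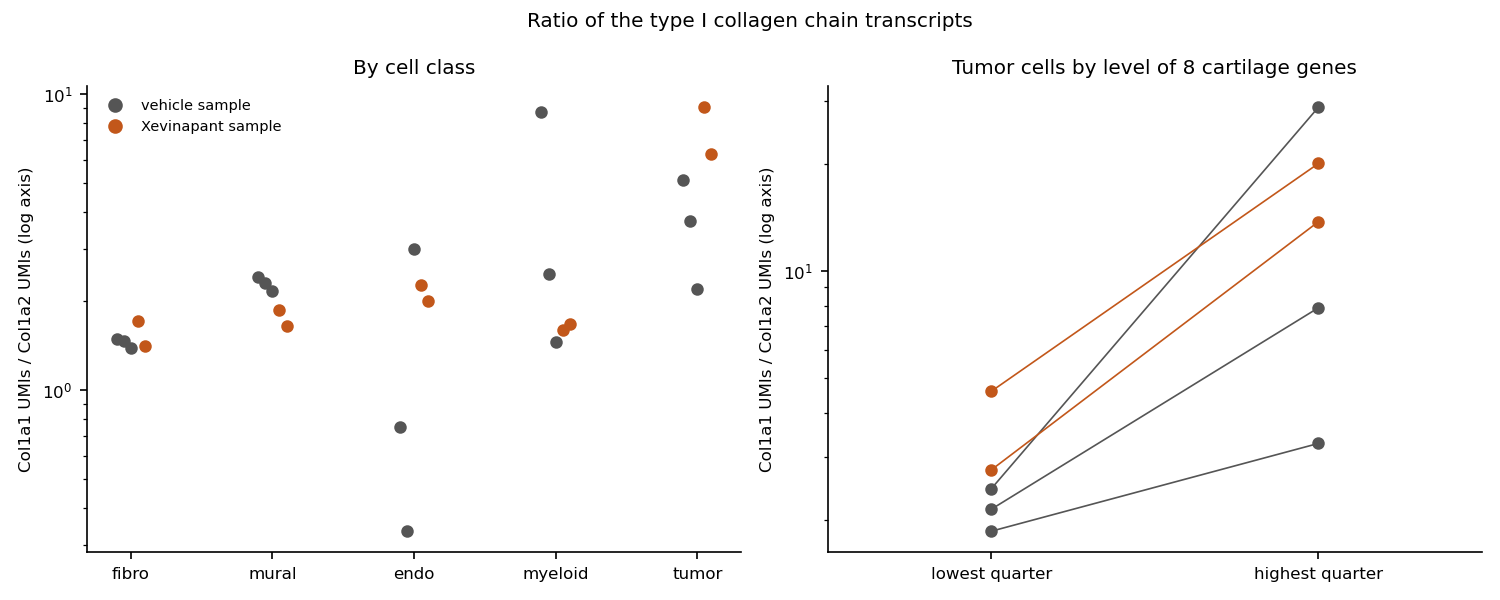
Ratio of Col1a1 UMIs to Col1a2 UMIs on log axes, with 1 point per joined sample, by cell class for samples with at least 3 Col1a2 UMIs (left) and in tumor cells of the lowest and highest group by 8 cartilage genes, with lines joining a sample (right). Fibroblasts sit between 1.39 and 1.72 and tumor cells between 2.20 and 9.05, and the ratio is higher in the highest cartilage group in 5 of 5 samples.

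Although levels were highest in stromal cells, the UMIs of several genes came mostly from tumor cells, which made up most of the cells. Tumor cells held 57.1 to 72.6% of the Col4a1 UMIs of the kept cells of a sample, 53.2 to 61.6% of Col4a2, 62.0 to 85.9% of Sparc and 43.1 to 79.9% of Lamb1. Endothelial cells held 4.11 to 8.57% of Col4a1. Of Col1a1, fibroblasts held 32.9 to 48.0%, mixed cells 31.1 to 50.5% and tumor cells 7.18 to 18.0%. For Dcn the fibroblast share was 35.1 to 70.4%, and for Lum 27.8 to 53.8%, with 20.2 to 34.5% of Lum in tumor cells.

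Most of the fibrillar collagen of mixed cells was in cells that passed the fibroblast gate. Of the 1553 mixed cells 311 passed the fibroblast gate, and these held 92.4% of the Col1a1 UMIs of mixed cells. The 162 cells that passed for fibroblasts and mural cells and carried no other panel held Col1a1 at 72818 CPM, Sparc at 22590.2 CPM and Col4a1 at 2081 CPM. They held 72.1% of the Col1a1 UMIs of mixed cells. The 106 cells that passed for fibroblasts and carried the tumor panel held Col1a1 at 12188 CPM. Whether such barcodes are 2 cells or 1 was not tested, and fold changes with mixed cells kept are given with the alternatives. The levels by class, and the contrast of fibroblasts with mural cells, leave mixed cells out. With mixed cells kept, mural cells numbered 368 in place of 96 and fibroblasts 561 in place of 325.

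**Figure D3:**
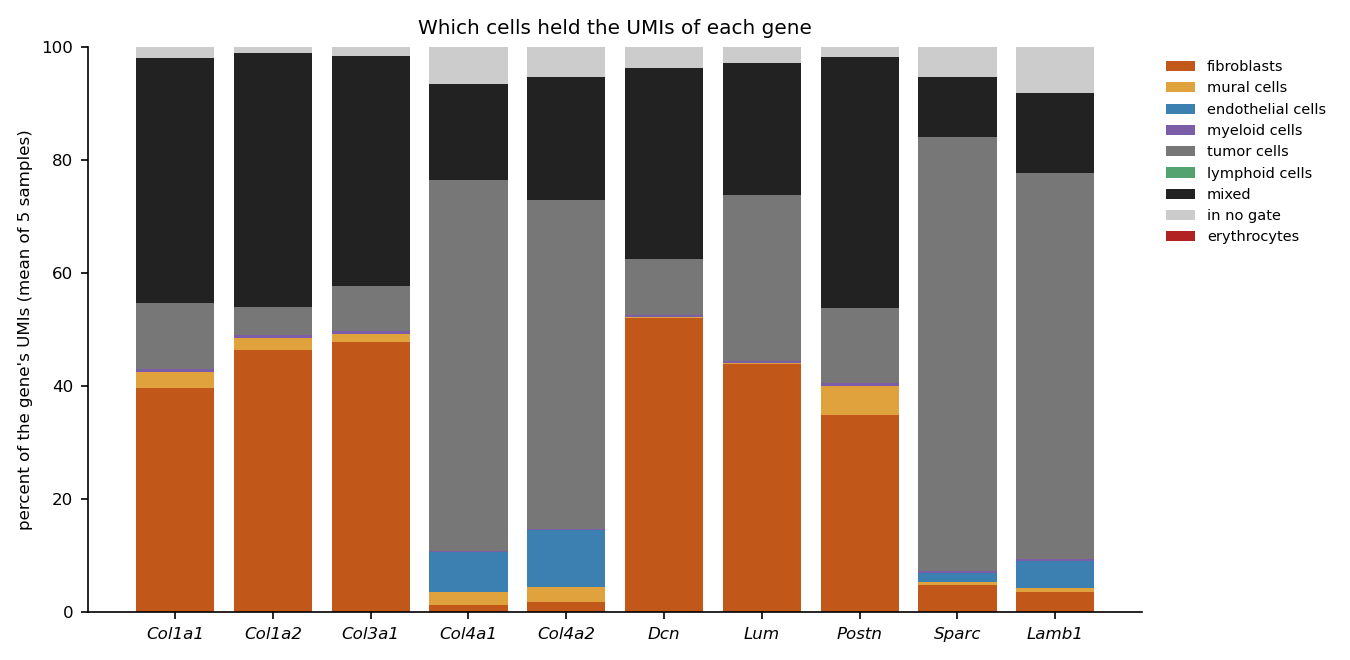
Share of the UMIs of each matrix gene, in percent on the y axis, held by each class of kept cells, as the mean of the 5 joined samples. Fibroblasts and mixed cells hold most of Col1a1, Col1a2, Col3a1 and Dcn, and tumor cells hold most of Col4a1, Col4a2, Sparc and Lamb1.

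Mural cells differed in whether a Col4a1 UMI was found, a split that also follows depth. Of the 96 mural cells, 70 held a Col4a1 UMI and had a median of 5010 UMIs, with Col1a1 at 15912 CPM, Postn at 3394 CPM and Lamb1 at 534 CPM. The 26 cells without one had a median of 1855 UMIs, with Col1a1 at 8811 CPM, Postn at 702 CPM and Lamb1 at 86.0 CPM. The groups differ in depth, and the part of depth in these values was not tested. The fibroblast panel in mural cells stood at 9.81 to 18.8% of its level in fibroblasts, and the mural panel in fibroblasts at 3.02 to 8.59% of its level in mural cells.

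Among tumor cells the matrix genes followed different states. Cells of each sample were ranked by the summed level of a panel, and the highest 25% were set against the lowest 25%. The study's panels for the mesenchymal-like (MES-like: Ndrg1, Akap12, Wwtr1), astrocyte-like (AC-like: Mlc1, Gfap, Id4, Clu), neural progenitor-like (NPC-like: Rbfox3, Syp, Dcx, Igfbpl1) and oligodendrocyte progenitor-like (OPC-like: Pdgfra, Olig1, Olig2, Cd9, Sox10, Cspg4, Nkx2-2) states were used. Of these genes Dcx, Olig1, Olig2, Sox10 and Nkx2-2 were also markers of the tumor gate. A panel of 8 cartilage genes (Col2a1, Col9a1, Col9a2, Col9a3, Col11a1, Col11a2, Acan, Matn1) was added after its values had been seen. The values are descriptions. Of 14636 genes, 26% were higher and 32.6% lower in the highest group in every sample with the AC-like panel, 22.8% and 32.9% with the MES-like, 18.8% and 20.7% with the NPC-like, 21.6% and 34.3% with the OPC-like and 21% and 30% with the cartilage panel. The median ratio over genes was 0.897 to 1.003 over panels and samples. Many cells tie at 0 for the state panels, and the lowest group then holds more than 25% of the cells and has lower UMI totals.

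Sparc was 2.42 to 4.73 times higher in the highest than in the lowest AC-like group, in 5 of 5 samples. Col4a1 was 1.51 to 2.01 times higher there and Lamb1 1.32 to 2.11 times. With the MES-like panel Lamb1 was 1.63 to 2.58 times higher, Col4a1 1.25 to 2.15 times and Sparc 1.38 to 1.90 times, each in 5 of 5 samples. With the NPC-like panel the same genes were lower in 5 of 5 samples, with ratios of 0.505 to 0.937 for Col4a1, 0.620 to 0.808 for Lamb1 and 0.599 to 0.796 for Sparc. Col4a2 had ratios of 1.28 to 1.86 with the AC-like panel (5 of 5 samples higher), 0.965 to 1.45 with the MES-like panel (4 of 5 higher) and 0.466 to 0.912 with the NPC-like panel (5 of 5 lower). Thus Col4a1, Lamb1 and Sparc were higher with AC-like and MES-like markers and lower with NPC-like markers in every sample, and Col4a2 in all but 1 sample of the MES-like panel. With the OPC-like panel Col4a1 and Lamb1 were lower in 5 of 5 samples, with ratios of 0.499 to 0.577 and 0.200 to 0.572, as was Col1a2 with 0.348 to 0.765. Col1a1 was higher in 5 of 5 samples with ratios of 1.12 to 1.92 and Lum with 2.31 to 6.83. Lum levels were low, at 1.62 to 3.57 CPM in the highest group and 0.353 to 0.825 CPM in the lowest. Sparc and Col4a2 had no common direction, with 2 of 5 samples higher.

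Tumor cells high in cartilage genes also differed in matrix genes. Col1a1 stood at 169, 40.9, 75.3, 589 and 183 CPM in the highest group and at 40.6, 21.3, 36.7, 81.5 and 32.5 CPM in the lowest, a ratio of 1.92 to 7.23. Lum was 4.27 to 15.2 times higher and Col3a1 1.36 to 4.03 times higher, in 5 of 5 samples. The Lum ratios rest on low levels, 1.73 to 5.94 CPM in the highest group and 0.298 to 0.586 CPM in the lowest. Over all tumor cells Lum stood at 0.709 to 2.22 CPM, against 325 to 1462 CPM in fibroblasts. Col1a2 had no common direction, with ratios of 0.352 to 1.45 and 3 of 5 samples higher. The ratio of Col1a1 to Col1a2 in the highest group was 28.9, 7.89, 3.28, 13.8 and 20.1, against 2.44, 2.14, 1.86, 2.76 and 4.59 in the lowest. Lamb1 and Col4a1 were lower in the highest group in 5 of 5 samples, with ratios of 0.162 to 0.536 and 0.592 to 0.856. Col4a2 did not follow Col4a1 here and was higher in 5 of 5 samples, with ratios of 1.002 to 1.70. Dcn was also higher in 5 of 5 samples, with ratios of 1.06 to 3.67 on levels of 0.275 to 4.10 CPM in the highest group. Median UMIs per cell in these groups lay between 9029 and 17581, higher in the highest group in 4 of 5 samples. Col1a1, Col3a1 and Postn also followed other panels. With the MES-like panel they were higher in 5 of 5 samples, with ratios of 1.23 to 1.85, 1.08 to 1.80 and 1.18 to 1.90. With the NPC-like panel they were lower in 5 of 5 samples, with ratios of 0.391 to 0.833, 0.323 to 0.890 and 0.388 to 0.787.

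The Col1a1 of tumor cells was concentrated in few cells. Tumor cells with at least 5 Col1a1 UMIs made up 4.56%, 1.05%, 1.69%, 14.1% and 5.47% of tumor cells and held 79.6%, 56.6%, 70.6%, 87.7% and 73.9% of their Col1a1 UMIs. Of these cells 78.3%, 62.5%, 44.0%, 71.9% and 73.0% held no Col1a2 UMI. Those without Col1a2 carried Col2a1, the chain of the cartilage collagen II, at 4698, 4266, 3244, 8274 and 5258 CPM, and tumor cells without Col1a1 at 1230.2, 1509, 413, 2305 and 1052 CPM. They were also deeper, with median totals of 23431 to 35184 UMIs against 8118 to 12925 UMIs. At 2000 UMIs per cell a Col1a1 UMI was found in 7.27%, 2.95%, 4.68%, 21.0% and 8.94% of tumor cells, so Xevinapant 1 and 2 stood highest at equal depth too. Lymphoid cells held Col1a1 at 0 to 117 CPM, and the part of RNA from other cells in these shares was not tested.

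**Figure D4:**
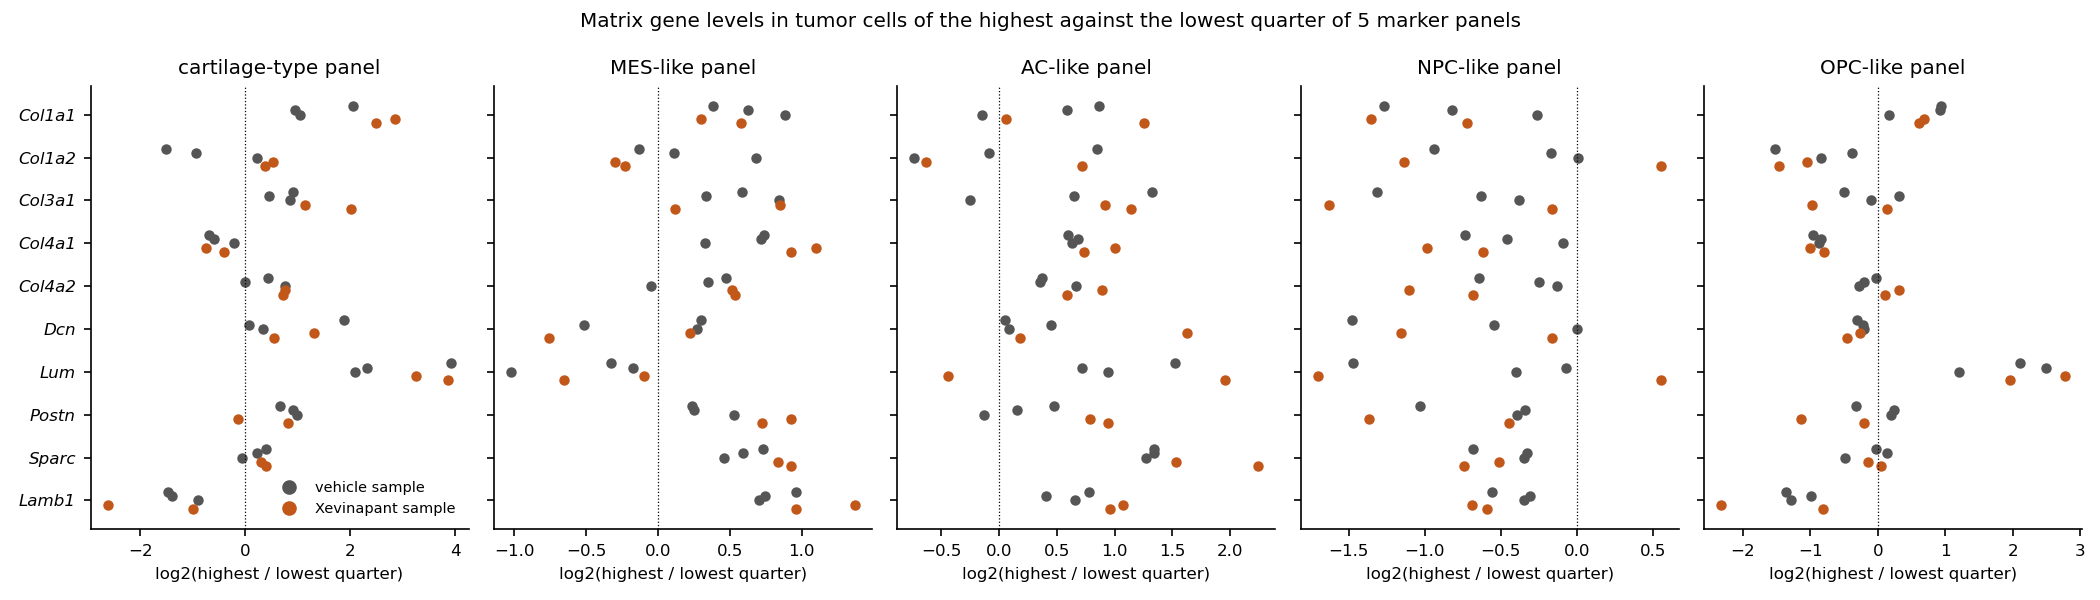
Ratio of each matrix gene's level between the highest and the lowest group of tumor cells ranked by 5 panels, as log2(highest / lowest) on the axis, with 1 point per joined sample. Sparc, Col4a1 and Lamb1 are above 0 for the AC-like and MES-like panels and below 0 for the NPC-like panel, Col4a1 and Lamb1 are below 0 for the OPC-like panel, and Col1a1 and Lum are above 0 for the cartilage panel while Lamb1 is below. Each panel has its own scale.

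Whether Xevinapant changed the matrix genes was asked first over all cells together. Col1a1 stood at 409, 291 and 338 CPM in the vehicle samples and at 2561 and 614 CPM with Xevinapant, and Dcn at 6.28, 3.30 and 5.64 CPM against 38.4 and 8.49 CPM. Col1a1, Col1a2, Col3a1, Col4a1, Dcn, Postn and Sparc, 7 of the 10, were higher in every Xevinapant sample than in every vehicle sample, where 24% of all genes tested were so. By single matrices Dcn overlapped, with Xevinapant 4 at 6.14 CPM and vehicle 3 at 6.83 CPM, and the other genes named did not. The log2 fold change was 2.15 ± 0.53 (SE) for Col1a1, 2.07 ± 0.48 for Col1a2, 2.08 ± 0.53 for Col3a1, 2.16 ± 0.60 for Dcn and 1.13 ± 0.35 for Postn. None of the 10 passed at an adjusted p of 0.05 by edgeR's quasi-likelihood test, the adjusted p of Col1a1 being 0.247, and 0% of the 15159 genes tested passed. At an unadjusted p under 0.05 stood 7 of the 10 genes and 2529 genes in all.

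The call depended on the test and the unit of replication, and the size of the change on the samples. By DESeq2, Col1a1, Col1a2, Col3a1 and Dcn passed (adjusted p 0.00214 to 0.0145), where 4.7% of all genes did, and with every matrix taken as 1 sample Col1a1, Col1a2 and Col3a1 passed by edgeR (adjusted p 0.0387 to 0.0453), where 9.46% did. The size rested on 1 sample: without Xevinapant 1 and 2 the log2 fold change fell to 0.74 for Col1a1, 0.79 for Col1a2, 0.67 for Col3a1, 0.65 for Dcn and 0.38 for Postn. Without Xevinapant 3 and 4 the log2 fold change was 2.81 for Col1a1, 2.70 for Col1a2, 2.75 for Col3a1, 2.85 for Dcn and 1.58 for Postn.

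In a sum over all cells, more cells of a type and more RNA per cell cannot be told apart, so both were measured. Fibroblasts were 0.330%, 0.140% and 0.398% of kept cells in the vehicle samples and 1.74% and 0.487% with Xevinapant. The difference was 0.822 percentage points (exact two-sided permutation p = 0.2, with the smaller tail doubled, which is the smallest that 3 against 2 samples allow in this form; adjusted p = 0.3 over the 3 shares compared), and 0.198 without Xevinapant 1 and 2. Endothelial cells were 0.330%, 0.322% and 0.259% against 0.541% and 0.580% (exact permutation p = 0.2, adjusted 0.3), and mural cells 0.154%, 0.112% and 0.112% against 0.406% and 0.145% (exact permutation p = 0.4). With every matrix as 1 sample the fibroblast share gave an exact permutation p of 0.0571, where the smallest possible is 0.0286. The shares of fibroblasts and endothelial cells were thus higher in every joined Xevinapant sample, within a design that cannot reach 0.05. Taken as single matrices the groups overlapped for both. Fibroblasts were 30 of 7661 kept cells in Xevinapant 4 and 57 of 14310 in vehicle 4. Endothelial cells were 20 of 4450 in Xevinapant 2 and 20 of 4335 in vehicle 1.

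Per fibroblast, no matrix gene was called. The log2 fold change was -0.29 ± 0.44 (SE; 95% interval -1.27 to 0.69) for Col1a1, -0.39 ± 0.43 for Col1a2, -0.27 ± 0.40 for Col3a1, -0.14 ± 0.37 for Dcn and -0.34 ± 0.40 for Sparc. Lum had the largest negative value with -1.01 ± 0.51 (edgeR unadjusted p = 0.0794, adjusted p = 0.970), and Col4a1 the largest positive one with 1.15 ± 0.86. Without vehicle 1 and 3 the value of Col4a1 was 3.06 (edgeR adjusted p = 0.200), and without vehicle 2 it was 0.68. None of the 10 had groups that did not overlap, where 12.4% of genes tested were higher and 6.56% lower in this way. By edgeR 0% of 7686 genes passed and by DESeq2 0.143%, and none of the 10 was past an unadjusted p of 0.05. With every matrix as 1 sample Lum had a log2 fold change of -1.11 (95% interval -1.99 to -0.23, edgeR unadjusted p = 0.0170, adjusted p = 0.550), where 0.0145% of genes passed. With mixed cells kept, Col1a1, Col1a2, Col3a1, Dcn and Sparc had small positive values instead. Changes within the 95% intervals over joined samples are not excluded, and no detection limit was computed for this number of samples and cells.

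Mural cells likewise gave no call, by edgeR (0% of 3090 genes) or DESeq2 (0%). All 8 matrix genes tested had negative log2 fold changes over joined samples, from -0.12 for Lamb1 to -1.08 ± 1.08 for Col1a1, and none was past an unadjusted p of 0.05. Col1a1, Col1a2, Col3a1 and Sparc turned positive when every matrix was 1 sample, when mixed cells were kept or without vehicle 1 and 3. The first and last of these settings both keep vehicle 4 as the only vehicle sample, so they are not separate alternatives. Col4a1 was lower in both Xevinapant samples (5072 and 6530 CPM) than in both vehicle samples (11181 and 7541 CPM), as 14.3% of genes were, while 15.4% were higher in this way. By single matrices Xevinapant 4 stood at 9256 CPM, above vehicle 4. Dcn and Lum were not tested over joined samples because of their low counts, with Dcn at 0, 0, 24 and 4 UMIs and Lum at 0, 0, 3 and 1 UMIs. Their Xevinapant values lay above vehicle values of 0, and the left-out vehicle 2 held Dcn at 8.01 CPM. These counts are too low to set a direction against that of the genes tested. The summed fibroblast panel in mural cells was 571 to 1138 CPM with vehicle and 820 to 941 CPM with Xevinapant. With every matrix as 1 sample only 1 vehicle matrix held 10 mural cells or more and is assumed to vary like the Xevinapant ones, 0.0228% of genes passed, and no matrix gene did, Dcn among those tested (edgeR unadjusted p = 0.0359, adjusted p = 0.999).

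**Figure D5:**
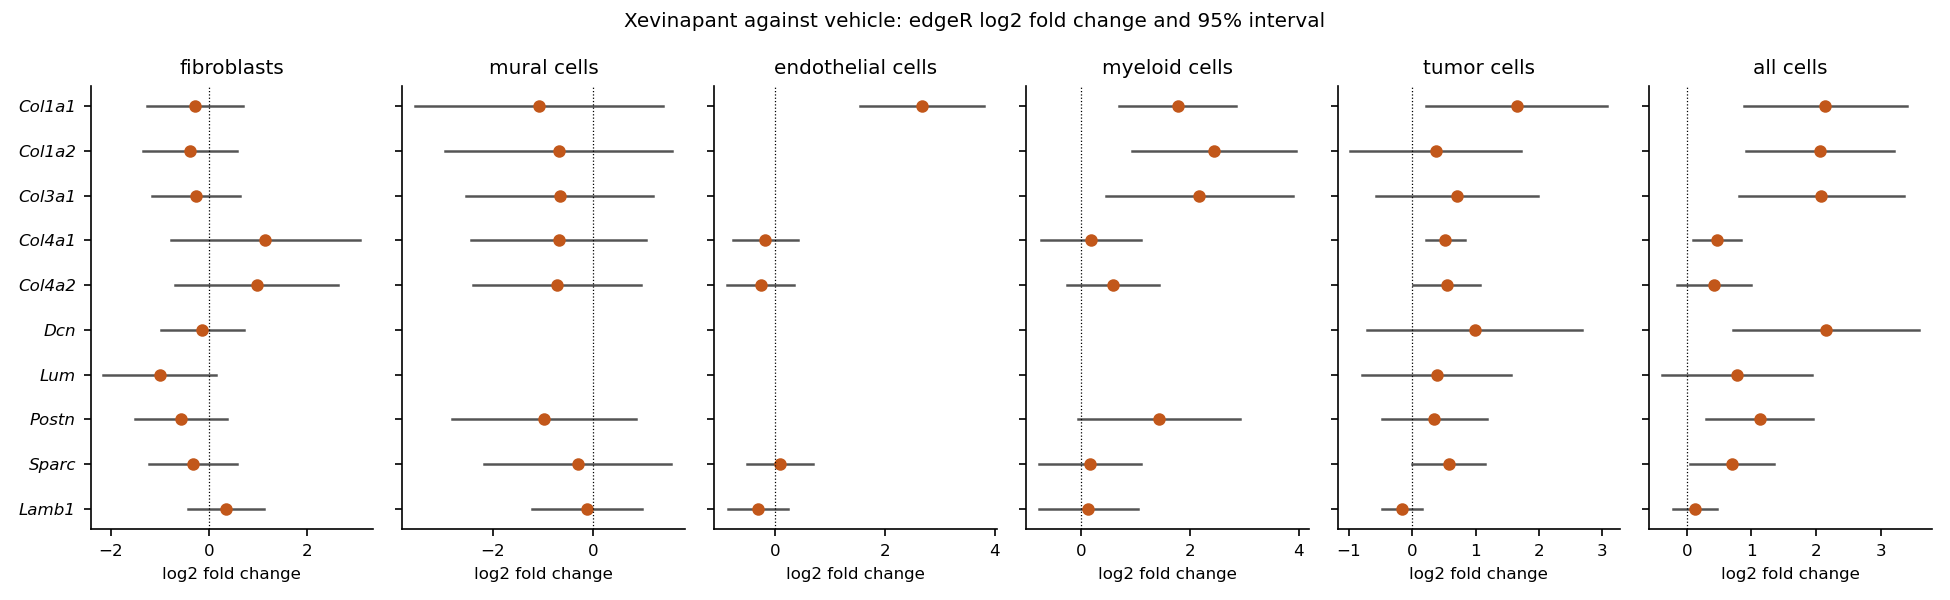
log2 fold change of each matrix gene, Xevinapant against vehicle, by cell class (edgeR, joined samples), with bars for the 95% interval; genes not tested in a class are blank. No value passes at an adjusted p of 0.05, and the intervals in fibroblasts and mural cells all span 0.

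In endothelial cells no basement membrane member was called, and the 95% intervals of all 3 spanned 0. The log2 fold change was -0.18 ± 0.28 (SE; 95% interval -0.78 to 0.41) for Col4a1, -0.27 ± 0.29 for Col4a2 and -0.32 ± 0.26 (-0.87 to 0.23) for Lamb1. Col1a1, whose endothelial level overlapped the lymphoid one, had UMIs of 3, 1, 9, 25 and 154 and a log2 fold change of 2.68 ± 0.53 (edgeR adjusted p = 0.142). The gene passed the filter on low counts only through the Xevinapant samples, where it is high, so its fold change and its lack of overlap follow in part from that choice and support nothing. The other 4 genes tested overlapped, where 12.5% of all genes were higher and 8.87% lower without overlap, and 0.0185% of 5415 genes passed by edgeR and 0.0369% by DESeq2. The value of Xevinapant 3 and 4 came mostly from matrix 4, at 431 CPM against 35.2 CPM in matrix 3. Taken as single matrices the groups overlapped, since Xevinapant 2 and 3, at 43.1 and 35.2 CPM, lay below vehicle 4 at 46.1 CPM. The summed fibroblast panel in these endothelial cells was 91.2 to 148 CPM with vehicle and 98.5 to 159 CPM with Xevinapant, with 14 of its 18 markers detected and Slc6a13, Tcf21, Mfap5 and Itgbl1 at 0. The part of RNA from other cells in this value was not tested.

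In myeloid cells no matrix gene passed by edgeR over joined samples, and the groups did not overlap for Col1a1, Col1a2 and Col3a1. Col1a1 stood at 99.9, 53.3 and 81.5 CPM with vehicle and at 391 and 132 CPM with Xevinapant, Col1a2 at 11.5, 21.7 and 56.0 against 245 and 79.0 CPM, and Col3a1 at 6.96, 18.3 and 60.3 against 199 and 63.3 CPM. These 3 of the 8 genes tested did not overlap, where 14.2% of genes were higher and 12.7% lower in this way, and their adjusted p by edgeR was 0.331, 0.336 and 0.407. Taken as single matrices the groups overlapped for all 3: Xevinapant 3 stood at 39.2, 21.8 and 12.96 CPM, below vehicle 4 at 81.5, 56.0 and 60.3 CPM. The make-up of the class also differed: microglia were 313 of 1157 myeloid cells with vehicle and 236 of 2112 with Xevinapant, macrophages and monocytes 458 and 1138, and neutrophils 60 and 282. In microglia Col1a1 stood at 263, 20.8 and 48.5 CPM against 68.6 and 55.1 CPM, with the groups overlapping and the lower mean with Xevinapant, where 11% of genes were higher and 7.84% lower without overlap. In macrophages and monocytes it stood at 24.6, 86.2 and 170 CPM against 493 and 219 CPM, without overlap, where 13.6% of the genes tested in myeloid cells were higher and 11.7% lower in this way. In neutrophils, with vehicle 2 and vehicle 4 left out for under 10 cells, it stood at 21.2 CPM against 269 and 40.5 CPM. The part of the make-up in the myeloid values was not tested. Without Xevinapant 1 and 2 the log2 fold change fell from 1.77 to 0.66 for Col1a1, from 2.44 to 1.27 for Col1a2 and from 2.18 to 0.99 for Col3a1. By edgeR 0% of 11258 genes passed (1166 at an unadjusted p under 0.05) and by DESeq2 0.773% and with every matrix as 1 sample 1.02%, none of them among the 10. The summed fibroblast panel in myeloid cells was 39.7, 40.8 and 43.2 CPM with vehicle. It was 49.8 CPM in Xevinapant 1 and 2 and 88.2 CPM in Xevinapant 3 and 4, while the 3 collagens were higher in Xevinapant 1 and 2. Of the panel, 17 of 18 markers were detected, with Tcf21 at 0, and its part in the collagen values was not tested.

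In tumor cells, Col4a1 had the smallest p of the 10. Its levels of 178, 145 and 139 CPM with vehicle and 227 and 229.6 CPM with Xevinapant gave a log2 fold change of 0.52 ± 0.13 (edgeR unadjusted p = 0.00541, adjusted p = 0.432). It passed by DESeq2 (adjusted p = 0.0436), where 1.74% of genes did, and with every matrix as 1 sample (adjusted p = 0.0357), where 3.81% did, while by edgeR over joined samples 0% of 14641 genes passed and 1620 were at an unadjusted p under 0.05. Leaving out any 1 sample kept the log2 fold change of Col4a1 between 0.46 and 0.63.

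Col4a1, Col4a2 and Sparc, 3 of the 10, did not overlap between the groups in tumor cells, where 19.1% of genes were higher in this way. By single matrices Col4a2 overlapped, with Xevinapant 4 at 72.2 CPM and vehicle 1 at 72.8 CPM, while Col4a1 and Sparc did not. Col4a2 had a log2 fold change of 0.54 ± 0.22 and Sparc of 0.57 ± 0.24 (edgeR adjusted p 0.447 and 0.452), and these values fell to 0.35 and 0.26 without Xevinapant 1 and 2. Col1a1 had a log2 fold change of 1.65 ± 0.60 (edgeR adjusted p = 0.432), which fell to 0.49 without Xevinapant 1 and 2, and its groups overlapped. The level of the cartilage panel in the highest 25% of tumor cells was 17824, 11669, 7680.1, 37141 and 19857 CPM, also highest in Xevinapant 1 and 2. These cells were picked by the same panel, and a link with the Col1a1 value was not tested. Lamb1 had a log2 fold change of -0.17 ± 0.13.

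Other matrix genes were read from fixed lists, and no gene of any list passed by edgeR over joined samples in any class. All genes of the lists were tested over all cells and in tumor cells. Over all cells the 14 fibril partners, such as Fn1 (fibronectin) and the chains of collagens V and VI, had a median log2 fold change of 1.33, with 11 at an unadjusted p under 0.05, where 2529 of all 15159 genes were. The 12 other basement membrane genes had a median of 0.63 with 6 such genes, the 14 collagen biosynthesis genes 0.58 with 5, and the 10 receptors -0.09 with 2, beside 0.01 over all genes. By DESeq2, where 4.7% of all genes passed, 7 fibril partners did, Fn1, Fbln2, Thbs2, Bgn, Col12a1, Col6a2 and Col6a3, together with Hspg2 (perlecan) and Nid1 (nidogen 1) of the basement membrane list, Adamts2, P4ha2 and Lox of the biosynthesis list and Cd44 and Itga5 of the receptors.

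In tumor cells the medians were 0.57 for fibril partners, 0.75 for basement membrane genes, 0.29 for biosynthesis genes and -0.06 for receptors, with 5, 6, 2 and 2 genes at an unadjusted p under 0.05, beside a median of 0.01 over all genes and 1620 of 14641 genes at that p. Hspg2 and Nid1 passed by DESeq2 (1.74% of all genes), and Nid1 and Fn1 with every matrix as 1 sample (3.81%). In fibroblasts, with 14, 10, 14 and 8 genes tested, the medians were -0.39, 0.13, 0.21 and 0.00, beside 0.01 over all genes. There 1 fibril partner and no other gene of the lists was at an unadjusted p under 0.05, where 385 of 7686 genes were, and no gene of the lists passed by DESeq2.

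In endothelial cells, with 5, 10, 10 and 7 genes tested, the medians were -0.66, -0.32, 0.01 and -0.20, beside -0.01 over all genes, and the first is the value of Fbln2 (-0.66 ± 0.83), the middle of 5. Bgn, biglycan, had a log2 fold change of -1.10 ± 0.24 (edgeR adjusted p = 0.173), Fn1 of -1.64 ± 0.45 (adjusted p = 0.263) and Pcolce of -0.80 ± 0.33 (adjusted p = 0.627), the only genes of the lists at an unadjusted p under 0.05, where 401 of 5415 genes were. In myeloid cells, with 14, 10, 13 and 9 genes tested, the medians were 0.77, 0.37, 0.29 and 0.03, beside -0.01 over all genes, with 4, 2, 2 and 0 genes at an unadjusted p under 0.05, where 1166 of 11258 genes were. Fn1 had the smallest p of these, with a log2 fold change of 1.67 ± 0.32 (edgeR adjusted p = 0.273), and passed by DESeq2 (0.773% of all genes) and with every matrix as 1 sample (1.02%). In mural cells, with 13, 10, 14 and 9 genes tested, the medians were -0.39, -0.57, 0.00 and -0.25, beside 0.04 over all genes, with Nid2 at -1.24 and Plod2 at 1.37 at an unadjusted p under 0.05, where 76 of 3090 genes were. The genes named here for their p were chosen after their values were seen.

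The genes most like the members were found by Pearson correlation of log2(CPM + 1) over the 24 points of class and sample among 8089 genes. Among the closest to the mean profile of Col1a1, Col1a2, Col3a1, Dcn, Lum and Postn were Mfap5 (0.979), Lox (0.975), Ccdc80 (0.970) and Crispld2 (0.968), of which Mfap5 was itself a fibroblast marker in the gates. Closest to Col4a1 and Col4a2 were Pear1 (0.972), Ehd2 (0.958), Bok (0.956), Dlc1 (0.954) and Ptprk (0.953), and closest to Sparc were Fkbp10 (0.985), Mxra8 (0.978), C1qtnf6 (0.976), Pdia5 (0.968) and Lamb2 (0.967). Among the members, Col1a1 and Col1a2 correlated at 0.98, Dcn and Lum at 0.97, Col4a2 and Lamb1 at 0.95 and Sparc and Lamb1 at 0.93, while Col1a1 and Col4a1 gave 0.11. The points share libraries and cell classes, and these values carry no test.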

How the data were processed

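The authors deposited 8 matrices of UMI counts, whole numbers without normalization, for 19059 genes. Per the file headers they came from Cell Ranger 7.1.0, and per the labels from version 3.0 on mm10, and cells were already called. The study removed doublets after this step, so the deposited counts still hold them, and no doublet caller was run here: cells that passed for more than 1 class were set aside. The names of the Xevinapant matrices say Vehicle; groups came from the sample labels.

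The filters on cells were a minimum of 200 genes, a mitochondrial share of up to 10% and a minimum complexity (log genes over log UMIs) of 0.8. Gates needed 3 distinct markers and a level per 10000 UMIs of at least 16 (fibroblasts, mural and lymphoid cells), 32 (endothelial cells), 64 (myeloid cells) or 20 (tumor cells), set on the marker panels and never on the matrix genes. Counts were summed by class and joined sample with at least 10 cells and tested with edgeR 4.0.16 (TMM, its filter on low counts, quasi-likelihood test, Benjamini-Hochberg adjustment over all genes tested) in R 4.3.3. The step was tested on simulated data. Alternatives were DESeq2 1.42.0, no TMM, no filter, mixed cells kept, a gate of 4 markers, every matrix as 1 sample and each sample left out. Shares were compared by exact permutation tests. Promoter windows came from RefSeq. All 10 genes are named in every class, and other genes by fixed lists or by correlation. One result of the correlation is not reported here. The members and lists were chosen with earlier results of these data known.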

Additional observations from a re-analysis of the deposited data

Results flagged for a closer look

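For Col4a1 the values in tumor cells and mural cells lay on opposite sides of no change. The ratio of the Xevinapant mean to the vehicle mean was 1.48 in tumor cells, with both Xevinapant samples above the 3 vehicle samples, and 0.620 in mural cells, with both below the 2 vehicle samples. Of all genes 19.1% were higher in this way in tumor cells and 14.3% lower in mural cells. Neither passed by edgeR over joined samples, while the tumor value passed by edgeR with every matrix as 1 sample (adjusted p = 0.0357), and the difference between the classes was not tested. The mural value rests on 14, 16, 36 and 22 cells, and as single matrices the mural groups overlapped, with Xevinapant 4 at 9256 CPM and vehicle 4 at 7541 CPM.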

How the results depend on the processing

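Cell number was a limit: vehicle 2 held 10 fibroblasts and 8 mural cells, so mural values rest on 4 samples. With every matrix as 1 sample, mural cells had 1 vehicle matrix against 4 with Xevinapant.

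The count of genes past the threshold depended on the fit. With every matrix as 1 sample it was 1 in fibroblasts, 1 in mural cells, 0 in endothelial cells, 113 in myeloid cells, 540 in tumor cells and 1389 over all cells. With DESeq2 it was 11, 0, 2, 87, 255 and 712. Without the filter it was 128 in fibroblasts, 36 in mural cells, 81 in endothelial cells and 476 in myeloid cells. It was 17 in endothelial cells with mixed cells kept, and 32 in mural cells and 3 in endothelial cells with the stricter gate. Leaving out each sample gave 0 to 46 genes in fibroblasts, 15 to 69 in mural cells, 0 to 20 in endothelial cells, 0 to 94 in myeloid cells, 0 in tumor cells and 0 to 564 over all cells.

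Of the 10 matrix genes, 4 passed over all cells with DESeq2 and 3 with every matrix as 1 sample, and 1 in tumor cells with each of these. Of all genes 4.7% and 9.46% passed over all cells with these fits, and 1.74% and 3.81% in tumor cells. Without the filter 4 passed in myeloid cells, 3 in endothelial cells and 1, Dcn, in mural cells, where 2.78%, 0.609% and 0.281% of all genes did. The mural Dcn value is set against vehicle samples with 0 UMIs. With the stricter gate 1, Col1a1, passed in endothelial cells, where 0.0545% of all genes did. In that class Col1a1 passed the filter over joined samples only through the Xevinapant samples, so its calls support nothing. The endothelial calls without the filter were Col1a1, Col1a2 and Col3a1, and the filter had left out Col1a2 and Col3a1 over joined samples. Leaving out a sample gave 0 to 5 over all cells, 0 to 3 in endothelial cells and 0 to 1 in myeloid cells. Leaving out a Xevinapant sample leaves 1 in that group, so the number of the 10 genes called is not given for these fits.

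Log2 fold changes of 39 combinations of gene, class and setting changed sign, none past the threshold, and the cause was not tested. With mixed cells kept, the value in fibroblasts was 0.23 for Col1a1, 0.13 for Col1a2, 0.18 for Col3a1, 0.22 for Dcn and 0.074 for Sparc. In mural cells it was 0.20 for Col1a1, 0.34 for Col1a2, 0.44 for Col3a1 and 0.077 for Sparc, in endothelial cells 0.21 for Col4a1 and 0.15 for Col4a2, and in myeloid cells -0.044 for Col4a1. With every matrix as 1 sample it was 0.48 for Col1a1, 0.74 for Col1a2, 0.067 for Col3a1 and 0.022 for Sparc in mural cells, and -0.0092 for Sparc in myeloid cells. With the stricter gate Col1a1 in fibroblasts was 0.031.

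Leaving out each sample in turn, which can leave 1 Xevinapant sample that is assumed to vary like the vehicle samples, gave ranges that crossed 0. In fibroblasts they were -0.50 to 0.061 for Col1a1 and -0.36 to 0.086 for Dcn. In mural cells they were -2.27 to 0.61 for Col1a1, -1.74 to 0.87 for Col1a2, -1.26 to 0.19 for Col3a1, -0.82 to 0.14 for Sparc and -0.28 to 0.028 for Lamb1. In tumor cells they were -0.40 to 0.87 for Col1a2, -0.14 to 1.23 for Col3a1 and -0.41 to 1.69 for Dcn. In myeloid cells they were -0.23 to 0.75 for Col4a1, -0.083 to 0.79 for Sparc and -0.41 to 0.52 for Lamb1, in endothelial cells -0.061 to 0.24 for Sparc, and over all cells -0.074 to 0.26 for Lamb1.

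The other log2 fold changes kept their sign: 471 also kept their side of the threshold and 22 crossed it. Class shares kept their direction in 21 of 21 values. Of the levels 371 moved by less than the spread between samples and 29 by more. With mixed cells kept, 28 levels moved by more and 22 by less, so the levels by class depend on setting these cells aside. Of the UMI shares 361 moved by less and 39 by more, the latter all with mixed cells kept. No paired analysis was possible because the labels give the samples no replicate numbers.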
